A study of Mus musculus with 11 samples.

Results

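Mouse embryonic fibroblasts (MEFs) carrying the Trex1p212fs genotype were set against wild-type (WT) MEFs across all named genes. The comparison takes every library with either label, 2 Trex1p212fs and 3 WT libraries of the 11 in the series; the others are 3 Trex1-/- and 3 Trex1D18N libraries. MEFs are connective-tissue cells grown from mid-gestation embryos, here isolated at embryonic day 13.5 and collected at passage 2, with the Trex1 genotype as the labelled difference between groups and no added treatment. The labels do not say whether Trex1p212fs was homozygous, what it encodes or how it was made. The growth notes name both primary and spontaneously immortalized MEFs without saying which libraries were which, and the number of embryos behind each group is not stated, so the p-values below measure the spread between libraries, which may be technical.

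Trex1 encodes a 3' exonuclease that degrades DNA in the cytosol. Without it, DNA can be sensed by cGAS and STING, which switch on interferon and interferon-stimulated genes; the D18N change lies in the catalytic site. The transcription factor p53 answers DNA damage and other stress by switching on genes for growth arrest, apoptosis, DNA repair and its own inhibitor Mdm2. Fibroblasts build the extracellular matrix, a mesh of collagens, elastic fibres and adhesive proteins that surrounds cells in tissue.

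The 5 libraries held between 16073955 and 18515214 counts, and 16990 genes were abundant enough to test. The genotype could not be read from the Trex1 gene, which had 0 counts in all 11 libraries: in the GRCm38 annotation it lies wholly within exons of Atrip on the same strand. The Trex1p212fs libraries resembled each other most of any same-genotype pair, with a Spearman correlation of 0.994 over the genes tested, yet their counts differed by more than sampling noise (chi-square of 7.28 per degree of freedom). All 3 WT libraries expressed Xist, the RNA that silences an X chromosome in female cells, at 408 to 920 CPM (counts scaled to a common library total of 1000000). Both Trex1p212fs libraries had Xist at 0 and 0.0541 CPM and expressed the Y-linked gene Ddx3y at 53.6 and 62.7 CPM, where WT had 0, so genotype and this sex pattern cannot be told apart between these groups. Trex1-/- replicates 1 and 3 and Trex1D18N replicates 2 and 3 shared the Y-linked pattern. Differences of Trex1p212fs from those libraries alone, an alternative chosen after seeing the data, are therefore given beside some of the lists and genes below. For the others they are not given.

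At an adjusted p under 0.05 (edgeR quasi-likelihood test, Benjamini-Hochberg over all genes tested), 1382 genes were higher and 1520 lower in Trex1p212fs than in WT, which is 8.13% and 8.95% of the genes tested. Of these, 626 were higher and 800 lower by at least 2-fold, 3.68% and 4.71% of the genes tested. At an unadjusted p under 0.05 the share was 33.2% in either direction. CPM of the 2 groups did not overlap for 54.2% of the genes tested. A lack of overlap given below for a gene past the threshold rests on the values that made the call and is not further evidence. The total of 2902 fell to 494 without Trex1p212fs replicate 1, to 512 without replicate 2, to 1699 without WT replicate 2 and to 1522 without WT replicate 3, and to 1331 with the sex pattern as a term. A test on simulated data with 100 changed genes per fold recovered 49% of 2-fold and 85% of 4-fold changes. All other genes there had the same mean in every genotype and no sex pattern, so these shares do not cover the confounded comparison made here.

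**Figure D1:**
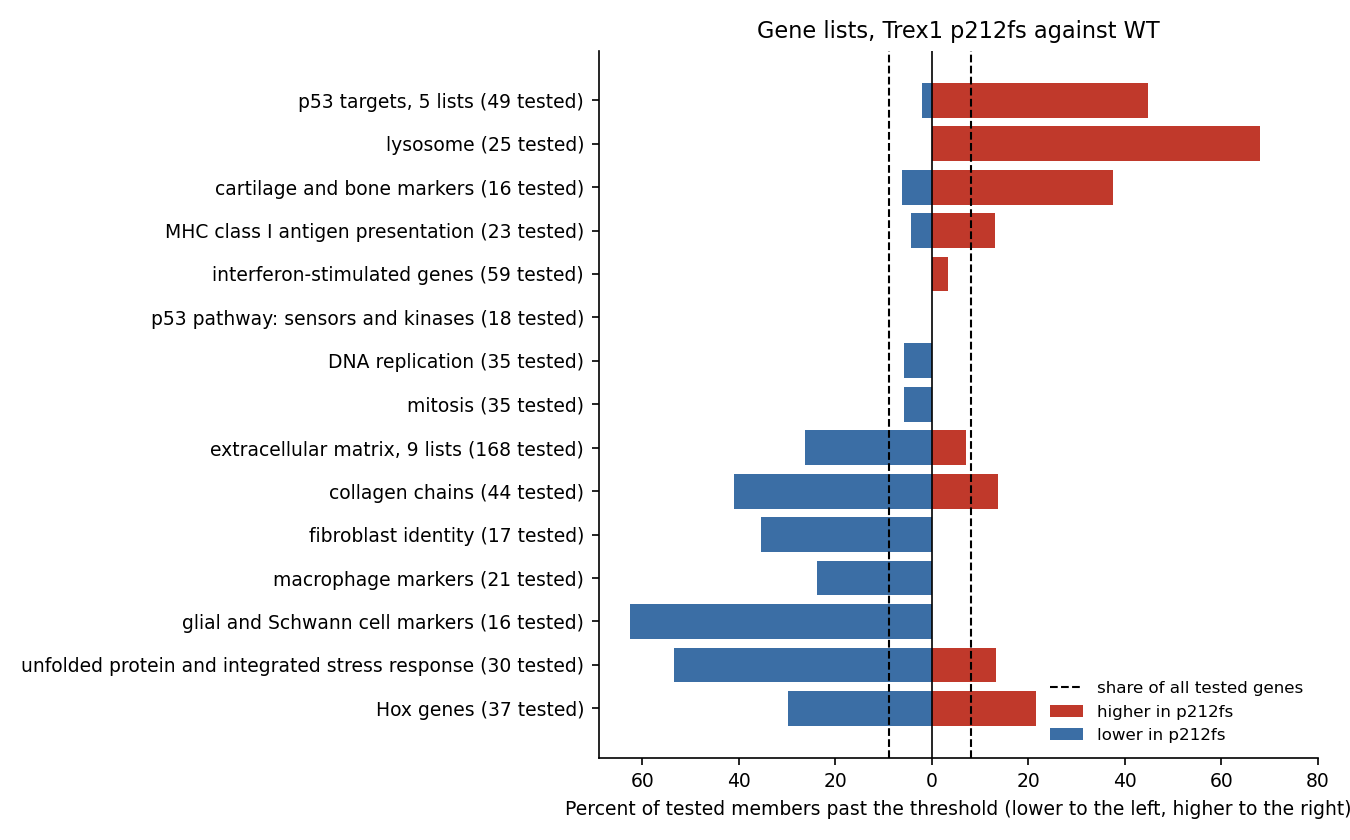
Percent of the tested members of 15 gene lists past the threshold in Trex1p212fs against WT, lower to the left (blue) and higher to the right (red); dashed lines mark the shares of all genes tested, 8.95% lower and 8.13% higher. The p53 target and lysosome bars reach farthest to the right, and the glial, stress response and collagen bars farthest to the left.

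The markers of the fibroblast itself were present, and some were lower. Of 17 tested genes of fibroblast identity, 6 were lower, 0 higher and 11 not past the threshold, where 8.95% of all genes were lower, with a median log2 difference of -0.57 against -0.02 over all genes tested. Of the 17, 5 had a log2 fold change above 0, among them Dcn and Lum, small proteoglycans of the matrix, at 0.18 and 0.25, and Vim, the intermediate filament of mesenchymal cells, had -0.64; none of these passed. The summed level of the list was 42313.8 to 43122.7 CPM in WT and 19471.2 to 23207.6 CPM in Trex1p212fs, mostly from collagen I. Thy1, a glycoprotein of the fibroblast surface, stood at 800, 603 and 595 CPM in WT and at 83.5 and 118 CPM in Trex1p212fs. Every Trex1p212fs value lay far under every WT value, a fold change of 6.91 downward (log2 fold change -2.79 ± 0.39 SE, adjusted p = 0.002). Pdgfra, the receptor for platelet-derived growth factor on mesenchymal cells, had a log2 fold change of -1.20 ± 0.26 (adjusted p = 0.0107), and Dpt, the matrix protein dermatopontin, of -2.15 ± 0.45 (adjusted p = 0.0112). Of the 6, 2 passed without Trex1p212fs replicate 1 and 3 with the sex pattern as a term. Thy1 and Col1a2 stayed past the threshold under all 20 alternatives, whereas Pdgfra and Dpt passed neither without Trex1p212fs replicate 1 nor with the sex pattern as a term, and Dpt was also lost without replicate 2.

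Markers of other cells that an embryo culture can hold also differed. Of 16 glial and Schwann cell markers, 10 were lower and 0 higher, against 8.95% and 8.13% of all genes, with a median log2 difference of -2.08. Their summed level was 355.7 to 518.2 CPM in WT and 105.2 to 106.9 CPM in Trex1p212fs, and no marker was at 0 in a whole group. In Trex1-/- it was 384.7 to 447.6 CPM and in Trex1D18N 138.9 to 282.4 CPM. Against the Y-linked-pattern libraries alone, 13 markers were tested. Among them, 9 were lower and 0 higher than in Trex1-/-, and 5 were lower and 1 higher than in Trex1D18N. The shares of all genes lower there were 22.3% and 23.9%. Sox10, the transcription factor of neural crest and Schwann cell precursors, was 75.1, 40.7 and 34.9 CPM in WT and 7.51 and 8.71 CPM in Trex1p212fs, without overlap (log2 fold change -2.70 ± 0.45, adjusted p = 0.00427). Erbb3, the neuregulin receptor of Schwann cells, was 42.1, 35.7 and 25.9 CPM in WT and 4.31 and 4.11 CPM in Trex1p212fs (log2 fold change -3.10 ± 0.36, adjusted p = 0.000676). In bulk RNA, fewer cells of a type and less RNA per cell cannot be told apart. Of the 10 genes, 3 stayed past the threshold without Trex1p212fs replicate 1, 2 without replicate 2 and 5 with the sex pattern as a term; Erbb3 and Cdh19, a cadherin of Schwann cell precursors, did so in all 20 alternatives.

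Macrophage markers were lower in 5 of 21 cases and higher in 0, against 8.95% and 8.13% of all genes. Their summed levels were 857.7 to 1136.7 CPM in WT and 550.1 to 728.9 CPM in Trex1p212fs, with no marker at 0 in either group. The sums were lower still in the other mutants, 259.2 to 402.3 CPM in Trex1-/- and 74.6 to 149.2 CPM in Trex1D18N. The 5 were Csf1r, the receptor for colony-stimulating factor 1, Cx3cr1, C1qb, C1qc and C5ar1, and 0 of them passed without either Trex1p212fs library. Without WT replicate 1, 2 or 3 the number was 3, 2 and 2, and it was 1 with the sex pattern as a term. Neuronal markers summed to 210.7 to 348.8 CPM in WT and to 426.8 and 428.7 CPM in Trex1p212fs, with Uchl1 and Sncg higher and 1 of 21 markers at 0 in Trex1p212fs. Endothelial markers summed to 202.7 to 268.7 CPM in WT and 126.6 to 132.3 CPM in Trex1p212fs. The part of these other cells in the gene differences below was not tested.

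Many genes known to be switched on by p53 were higher in Trex1p212fs. Over 5 lists of such targets, 49 genes were tested, of which 22 were higher and 1 lower, against 8.13% higher and 8.95% lower over all genes. Their median log2 difference was 0.41. Of the 22, 11 passed without Trex1p212fs replicate 1, 13 without replicate 2 and 18 with the sex pattern as a term. Every one of the 22 had both Trex1p212fs values above all 3 WT values, but the calls were made on these same values. Over all genes tested, the groups did not overlap for 54.2%. Calls in the same direction were made in direct comparison with the other mutants: 21 of the 49 were higher and 3 lower than in Trex1-/-, and 25 were higher and 7 lower than in Trex1D18N, where 15.4% and 18.6% of all genes were higher (32.5% and 38.7% in either direction), and these contrasts use the same Trex1p212fs libraries. Against the Y-linked-pattern libraries alone, 22 of the 49 were higher and 3 lower than in Trex1-/-, and 26 were higher and 6 lower than in Trex1D18N. Of all genes, 20.3% and 23.3% were higher there, and 22.3% and 23.9% lower. These contrasts too use the Trex1p212fs libraries on which the 22 were called.

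The apoptosis and death-receptor targets had the most members past the threshold, 11 of 15. Pmaip1, which encodes the BH3-only killer protein Noxa, was 5.09, 7.04 and 8.68 CPM in WT and 74.1 and 61.5 CPM in Trex1p212fs. Perp, a desmosomal membrane protein that p53 uses in apoptosis, was 1.77, 2.12 and 2.60 CPM in WT and 43.8 and 27.4 CPM in Trex1p212fs. For both genes the groups were separated by a wide gap, with log2 fold changes of 3.23 ± 0.23 (adjusted p = 5.14e-05) and 3.98 ± 0.34 (adjusted p = 0.000165). Against Trex1-/- libraries of the Y-linked pattern the log2 fold changes were 3.29 for Pmaip1 and 3.79 for Perp. 

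Tnfrsf10b, a death receptor for the ligand TRAIL, rose from 25.3, 29.8 and 31.6 CPM to 71.6 and 59.6 CPM (log2 fold change 1.13 ± 0.14, adjusted p = 0.000735). Fas, the receptor of Fas ligand, rose from 17.4, 18.4 and 20.6 CPM to 55.8 and 59.2 CPM (log2 fold change 1.55 ± 0.32, adjusted p = 0.00943). Bbc3, encoding the BH3-only protein Puma, was even within WT at 28.8, 29.5 and 28.6 CPM and stood at 55.1 and 51.2 CPM in Trex1p212fs (log2 fold change 0.81 ± 0.16, adjusted p = 0.00698). None of these groups overlapped. Bax, the pore-forming killer protein of mitochondria, Phlda3, an inhibitor of Akt, and Pidd1, a scaffold for caspase 2, had log2 fold changes of 0.84, 0.77 and 1.27. Trp53inp1, Eda2r and Ei24 lay nearer the threshold, at adjusted p-values of 0.0349, 0.0305 and 0.0477. Aen, Zmat3, Cdip1 and Apaf1 did not pass, with log2 fold changes of 0.24, 0.49, 0.36 and -0.10. Without Trex1p212fs replicate 1 the members that stayed past the threshold were Pmaip1, Perp and Tnfrsf10b, and without replicate 2 they were these and Bbc3.

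The growth-arrest targets had fewer members past the threshold, 4 of 11, but all 4 kept it in all 20 alternatives. Cdkn1a, which encodes the cyclin-dependent kinase inhibitor p21, was 174, 177 and 190 CPM in WT and 600 and 536 CPM in Trex1p212fs. Psrc1, a microtubule-binding protein, was 48.0, 41.5 and 48.0 CPM in WT and 154 and 151 CPM in Trex1p212fs. The log2 fold changes were 1.60 ± 0.26 (adjusted p = 0.00321) and 1.67 ± 0.14 (adjusted p = 0.000139), far beyond the spread in either group. Ccng1, encoding cyclin G1, went from 157, 195 and 205 CPM to 514 and 484 CPM, and Btg2, an antiproliferative gene, had a log2 fold change of 1.21 ± 0.17. The remaining members did not pass, among them Gadd45a at a log2 fold change of -0.50 and Sfn, the gene for 14-3-3 sigma, at 0.06.

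Among genes that feed back on p53, Mdm2, the ubiquitin ligase that degrades p53, was 63.8, 73.6 and 69.1 CPM in WT and 170 and 163 CPM in Trex1p212fs (log2 fold change 1.21 ± 0.20, adjusted p = 0.00359), past the threshold in all alternatives. Rps27l had a log2 fold change of 0.59 and was lost without either Trex1p212fs library, without WT replicate 2 or 3 and with the sex pattern as a term. Of 8 repair targets, Ercc5, a nuclease of nucleotide excision repair, and Polk, a translesion DNA polymerase, were higher, with log2 fold changes of 0.83 and 0.67; Polk was lost without WT replicate 1 or 3, without Trex1-/- replicate 3, without either Trex1p212fs library and with the sex pattern as a term. Xpc, Ddb2 and Polh, also repair genes, had values of -0.12, -0.07 and -0.37 and did not pass.

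The metabolic targets held 2 of the larger changes. Dcxr, a carbonyl reductase of the xylulose pathway, was 18.3, 13.8 and 18.1 CPM in WT and 103 and 85.5 CPM in Trex1p212fs (log2 fold change 2.43 ± 0.22, adjusted p = 0.000172). Ak1, an adenylate kinase, was 72.9, 64.3 and 72.7 CPM in WT and 274 and 248 CPM in Trex1p212fs (log2 fold change 1.84 ± 0.14, adjusted p = 9.66e-05). Both were separated from WT without overlap and passed in all alternatives. Aldh4a1, a proline-catabolic dehydrogenase, had a log2 fold change of 1.31. Sesn2, a sestrin that is also known as a target of Atf4, was the member that fell, from 108, 95.8 and 113 CPM to 72.4 and 69.5 CPM (log2 fold change -0.63 ± 0.15, adjusted p = 0.0166); it did not pass without WT replicate 3 or either Trex1p212fs library, nor with the sex pattern as a term.

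**Figure D2:**
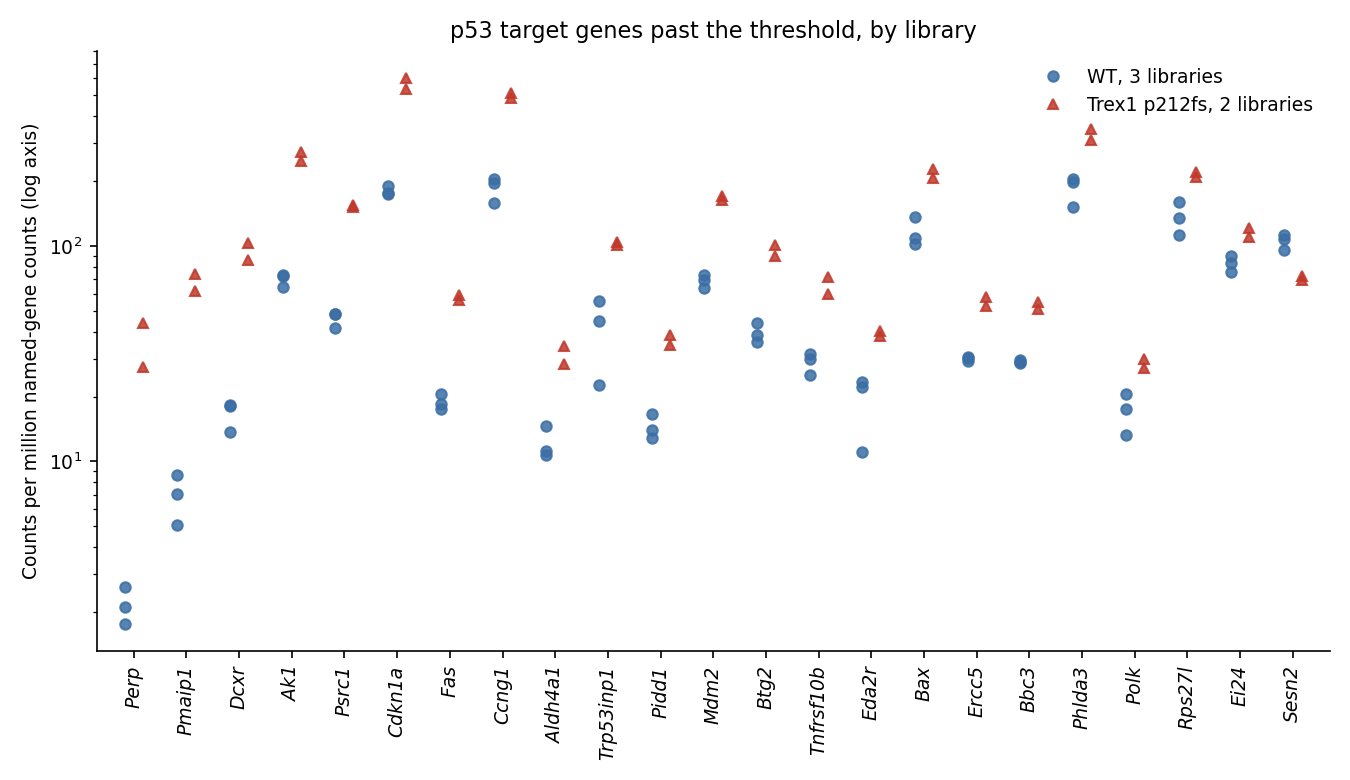
CPM on a log axis for the 23 p53 target genes past the threshold, ordered from the highest log2 fold change to the lowest, with a point for each of the 3 WT (circles) and 2 Trex1p212fs (triangles) libraries. Triangles lie above all circles for every gene but Sesn2, and the gap is widest for Perp and Pmaip1.

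The genes that sense DNA damage or control p53 activity gave no call at the level of RNA. Of 18 tested, 0 passed in the edgeR test, against 17.1% of all genes in either direction, and the median log2 difference was -0.39. At an unadjusted p under 0.05, 6 of the 18 were lower and 0 higher, where 33.2% of all genes were past it in either direction. The number that passed was 3 in DESeq2, 0 in limma-voom and 5 in edgeR without WT replicate 1. Over all genes, 3746 of 16990, 2689 of 16990 and 3947 of 16927 passed in these fits. Trp53 itself was 220, 160 and 186 CPM in WT and 219 and 193 CPM in Trex1p212fs, overlapping, with a log2 fold change of 0.06 ± 0.21. The kinase gene Chek2 had a log2 fold change of -0.11. Atm spread from 7.58 to 38.8 CPM within WT alone and had a log2 fold change of -0.93 ± 0.53.

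RefSeq windows of 300 bases, from 250 before to 50 after each gene start in GRCm38.p6, were searched for the p53 decamer, the 10-base unit of the p53 response element. It was present in 8.36% of 32851 windows and in 15 of 39 target genes with a window: in 7 of 18 that were higher and in 8 of 19 that did not pass. The windows of 4 higher genes are shown, each 60 bases, 5' to 3' on the gene's strand, with the decamers in capitals, because they span arrest, feedback and apoptosis; Cdkn1a has 2 of them. They lie at chr17:29090886-29090945 (plus strand, Cdkn1a), chr10:117710905-117710964 (minus strand, Mdm2), chr11:40755432-40755491 (minus strand, Ccng1) and chr7:45467060-45467119 (minus strand, Bax).
Cdkn1a: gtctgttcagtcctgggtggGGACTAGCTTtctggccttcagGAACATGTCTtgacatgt
Mdm2: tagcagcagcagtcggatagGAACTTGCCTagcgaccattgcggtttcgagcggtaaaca
Ccng1: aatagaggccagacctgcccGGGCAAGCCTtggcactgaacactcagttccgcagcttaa
Bax: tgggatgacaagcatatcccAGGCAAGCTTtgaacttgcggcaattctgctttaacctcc

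Matrix genes moved mostly the other way. Over 9 lists, 168 matrix genes were tested, of which 44 were lower and 12 higher, with a median log2 difference of -0.40. These are 26.2% and 7.14%, against 8.95% and 8.13% of all genes, so the higher share is near that of all genes. Corrected for length and GC content of each gene, the median was -0.23, with 38 lower and 13 higher. Among the 44 collagen chains, 18 were lower and 6 higher, 40.9% and 13.6%, with a median of -0.88. In contrast with the other mutants, 57 of the 168 were lower than in Trex1-/- and 68 lower than in Trex1D18N, where 17.1% and 20.1% of all genes were. Against the Y-linked-pattern libraries alone, 166 matrix genes were tested. Of these, 78 were lower and 19 higher than in Trex1-/-, and 86 were lower and 33 higher than in Trex1D18N. Of all genes, 22.3% and 23.9% were lower there, and 20.3% and 23.3% higher. These contrasts use the Trex1p212fs libraries on which the 44 lower matrix genes were called. The 44 came down to 14 of the same genes without Trex1p212fs replicate 1, 18 without replicate 2 and 26 with the sex pattern as a term; the 12 higher genes came to 4, 5 and 5, and to 7 without WT replicate 2 or 3. The 18 lower collagen chains came to 8, 11 and 13.

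Collagen VI, which forms beaded microfilaments around cells, had all 3 of its main chains among the genes that fell in every alternative. Col6a3 was 1523, 1891 and 1486 CPM in WT and 173 and 234 CPM in Trex1p212fs (log2 fold change -3.06 ± 0.22, adjusted p = 5.14e-05). Col6a2 was 1889, 1692 and 1784 CPM in WT and 365 and 474 CPM in Trex1p212fs (log2 fold change -2.15 ± 0.22, adjusted p = 0.000376). Col6a1 was 2216, 2332 and 2295 CPM in WT and 638 and 756 CPM in Trex1p212fs (log2 fold change -1.77 ± 0.18, adjusted p = 0.000425). The highest Trex1p212fs value lay far under the lowest WT value for each chain. Against Trex1-/- and Trex1D18N libraries of the Y-linked pattern, the log2 fold change of Col6a3 was -3.12 and -3.98. The rarer chain Col6a4 fell as well, with a log2 fold change of -2.67, while Col6a5 and Col6a6 had values of -1.73 and -1.93 and did not pass.

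Collagens XV and XVIII, multiplexins at the edge of basement membranes, fell too. Col15a1 was 57.9, 59.0 and 54.5 CPM in WT and 3.42 and 3.51 CPM in Trex1p212fs (log2 fold change -4.10 ± 0.29, adjusted p = 5.14e-05), the lowest log2 fold change among the 18 collagen chains that fell. Col18a1 was 512, 383 and 357 CPM in WT and 82.8 and 112 CPM in Trex1p212fs (log2 fold change -2.16 ± 0.26, adjusted p = 0.000654). Neither gene overlapped between groups. Of 21 basement membrane collagens and laminins, 7 were lower and 0 higher, including Lama1, the laminin alpha 1 chain, at a log2 fold change of -2.71 ± 0.24, and Col4a1 and Col4a2, the main collagen IV chains, at -1.10 and -0.77. Of the 7, 2 passed without Trex1p212fs replicate 1, 3 without replicate 2, 4 without WT replicate 3 and 4 with the sex pattern as a term.

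Fibrillar collagens, which give connective tissue its tensile strength, also fell. Col1a1 was 22583, 22405 and 23140 CPM in WT and 9841 and 12062 CPM in Trex1p212fs (log2 fold change -1.11 ± 0.17, adjusted p = 0.00271). Col1a2, its partner in collagen I, was 11483, 13567 and 13471 CPM in WT and 4972 and 6227 CPM in Trex1p212fs (log2 fold change -1.26 ± 0.16, adjusted p = 0.00105). Col3a1 was 6095, 9472 and 8684 CPM in WT and 3125 and 4135 CPM in Trex1p212fs (log2 fold change -1.21 ± 0.24, adjusted p = 0.00836). Groups did not overlap, and Col5a1, Col5a3 and Col27a1 fell with them, whereas Col5a2 at -0.21 and Col24a1 at -0.63 did not pass. Of the 6 fibrillar chains that fell, Col1a2 passed in all alternatives and the others did not pass without Trex1p212fs replicate 1. Col5a3 and Col27a1 were also lost without replicate 2, and Col3a1, Col5a3 and Col27a1 with the sex pattern as a term; Col27a1 was lost without WT replicate 2 as well.

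Beyond collagens, Postn, the matricellular protein periostin, was 2237, 2577 and 2367 CPM in WT and 475 and 947 CPM in Trex1p212fs (log2 fold change -1.81 ± 0.25, adjusted p = 0.00153). Ltbp4, a latent TGF-beta binding protein of elastic fibres, was 127, 152 and 168 CPM in WT and 31.4 and 29.9 CPM in Trex1p212fs (log2 fold change -2.34 ± 0.25, adjusted p = 0.000497). Both passed in all alternatives. Eln, the gene for elastin, was 472, 941 and 1004 CPM in WT and 126 and 129 CPM in Trex1p212fs, but its log2 fold change of -2.71 ± 0.78 was lost without WT replicate 2 or 3, without either Trex1p212fs library and with the sex pattern as a term. Against Trex1D18N, whose libraries had 114, 75.9 and 69.5 CPM, Eln did not differ past the threshold (log2 fold change 0.49, adjusted p = 0.6). Itga6, an integrin receptor for laminin, had a log2 fold change of -2.23 ± 0.26 (adjusted p = 0.000637).

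The 6 collagen chains that rose were Col2a1, Col9a1, Col9a2, Col9a3, Col19a1 and Col25a1. Collagens II and IX make up cartilage fibrils. Col2a1 was 15.0, 18.7 and 43.7 CPM in WT and 581 and 417 CPM in Trex1p212fs (log2 fold change 4.22 ± 0.67, adjusted p = 0.00421), and Col9a1 was 1.44, 2.49 and 3.42 CPM in WT and 11 and 14.4 CPM in Trex1p212fs. All values of both genes were above WT. Of 16 cartilage and bone markers, 6 were higher and 1, Runx2, lower, against 8.13% and 8.95% of all genes. Beside the collagens, the higher ones were Hapln1, a link protein of cartilage matrix, and Spp1, the gene for osteopontin. Sox9, the master regulator of cartilage, was 19.3, 27.8 and 24.3 CPM in WT and 21.5 and 20.4 CPM in Trex1p212fs, overlapping, and Acan, the cartilage proteoglycan aggrecan, had a log2 fold change of -1.99 and did not pass (adjusted p = 0.0978). With the sex pattern as a term, 0 of the 6 passed; without Trex1p212fs replicate 1 there were 2, without replicate 2 there was 1, and without WT replicate 2 or 3 there were 2 and 3. The summed level of the cartilage and bone list was 501.5 to 753.7 CPM in WT and 2493.7 to 2762.3 CPM in Trex1p212fs, most of it Spp1. Against Trex1-/- libraries of the Y-linked pattern, 2 of the 16 markers were higher and 5 lower, where 20.3% and 22.3% of all genes were. The higher ones were Col2a1 at a log2 fold change of 2.48 and Spp1 at 2.68, while Col9a1, Col9a2 and Col9a3 had 0.27, 0.35 and 0.72 and did not pass. Against those of Trex1D18N, 8 were higher and 3 lower, where 23.3% and 23.9% of all genes were.

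Spp1 was 658, 384 and 478 CPM in WT and 2079 and 1974 CPM in Trex1p212fs (log2 fold change 1.93 ± 0.48, adjusted p = 0.0242); it was lost without WT replicate 2 or 3, without either Trex1p212fs library and with the sex pattern as a term. Efemp1, the elastic-fibre protein fibulin 3, went from 13.8, 21.2 and 19.5 CPM to 219 and 177 CPM (log2 fold change 3.39 ± 0.64, adjusted p = 0.00844), lost without Trex1p212fs replicate 1. Emilin1, another elastic-fibre glycoprotein, was 253, 299 and 316 CPM in WT and 534 CPM in both Trex1p212fs libraries and passed in all alternatives (log2 fold change 0.83 ± 0.14, adjusted p = 0.00342).

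**Figure D3:**
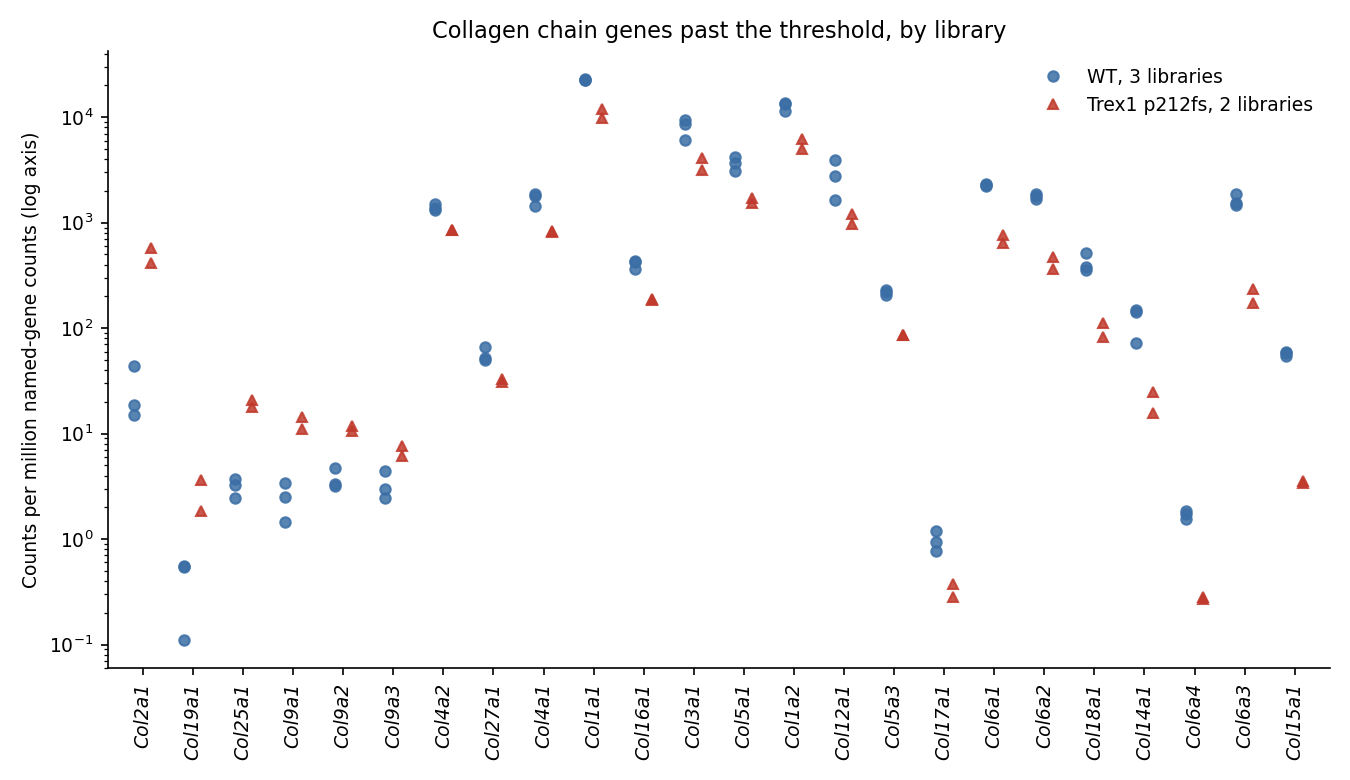
CPM on a log axis for the 24 collagen chain genes past the threshold, ordered from the highest log2 fold change to the lowest, with a point for each of 3 WT (circles) and 2 Trex1p212fs (triangles) libraries. The 6 chains on the left have triangles above circles, and the other 18, including Col6a3 and Col15a1 on the right, have triangles below.

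Genes of the lysosome, the acidic compartment in which cells digest proteins, lipids and sugars, were mostly higher. Of 25 tested, 17 were higher and 0 lower, against 8.13% and 8.95% of all genes, with a median log2 difference of 0.71. Against the other mutants, 18 were higher than in Trex1-/- and 15 higher than in Trex1D18N, and 1 was lower in each. Of all genes, 15.4% and 18.6% were higher there. Against the Y-linked-pattern libraries alone, 19 were higher and 1 lower than in Trex1-/-, and 20 were higher and 1 lower than in Trex1D18N. The shares of all genes higher in these contrasts were 20.3% and 23.3%. Macrophages are rich in lysosomes, and their markers moved with the contrast to all Trex1D18N libraries: 15 of 21 were higher and 0 lower. Their summed levels were 550.1 to 728.9 CPM in Trex1p212fs and 74.6 to 149.2 CPM in Trex1D18N. Against WT the same markers were lower in 5 cases and higher in 0, and their part in the lysosomal result was not tested. Several proteases rose. Ctsl, encoding cathepsin L, was 464, 377 and 412 CPM in WT and 920 and 984 CPM in Trex1p212fs (log2 fold change 1.13 ± 0.16, adjusted p = 0.00147). Ctsd, encoding cathepsin D, was 650, 442 and 579 CPM in WT and 1358 and 1276 CPM in Trex1p212fs (log2 fold change 1.18 ± 0.18, adjusted p = 0.00243). Ctsb, encoding cathepsin B, was 838, 730 and 802 CPM in WT and 1569 and 1533 CPM in Trex1p212fs (log2 fold change 0.91 ± 0.14, adjusted p = 0.00251). Each was close to doubled, with no overlap between groups.

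Enzymes that cut sugars and lipids followed. Gla, alpha-galactosidase A, was 32.3, 27.0 and 27.0 CPM in WT and 92.1 and 88.4 CPM in Trex1p212fs (log2 fold change 1.59 ± 0.28, adjusted p = 0.00522), and it lies on the X chromosome. Both its Trex1p212fs values were clear of all WT values. Ctsa, the protective protein of the galactosidase complex, Tpp1, a tripeptidyl peptidase, and Glb1, beta-galactosidase, had log2 fold changes of 1.02, 0.91 and 0.93, and the membrane proteins Lamp1 and Lamp2 of 0.79 and 0.71. Npc2, a cholesterol carrier of the lysosome, had a log2 fold change of 1.23 and its partner Npc1 of -0.15, which did not pass. Ctsa, Ctsb, Ctsd, Ctsl, Gla and Tpp1 were among 7 genes that passed in all 20 alternatives; of the 17 genes, 8 passed without either Trex1p212fs library and 11 with the sex pattern as a term.

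Many lysosomal genes carry a palindrome, TCACGTGA, that is bound by Tfeb, a transcription factor of lysosome genes. It was present on either strand in 0.974% of all promoter windows and in 4 of 21 windows of lysosomal genes. By gene, 4 of 19 with a window had it. These were 3 of 14 that were higher (Ctsa, Ctsd and Gla, 21.4%) and 1 of 5 that did not pass (Mcoln1, 20%), which are near-equal shares. The windows of the 3 higher genes are shown with the palindrome in capitals. A match says only that the letters are there. They lie at chr2:164833713-164833772 (plus strand, Ctsa), chr7:142387887-142387946 (minus strand, Ctsd) and chrX:134601193-134601252 (minus strand, Gla) of GRCm38.p6, from RefSeq.
Ctsa: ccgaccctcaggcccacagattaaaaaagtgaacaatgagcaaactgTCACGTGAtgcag
Ctsd: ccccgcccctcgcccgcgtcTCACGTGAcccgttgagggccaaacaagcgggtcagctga
Gla: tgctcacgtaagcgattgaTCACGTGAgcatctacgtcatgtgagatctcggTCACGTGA

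A list of 30 stress response genes split by role, a split made after their values were seen. Its integrated-stress part holds genes that the transcription factor Atf4 switches on when amino acids run short or translation is slowed. Of these 17, 14 were lower and 0 higher, against 8.95% and 8.13% of all genes, with a median log2 difference of -1.38. Of the 13 genes of protein folding in the endoplasmic reticulum, 4 were higher and 2 lower, 30.8% and 15.4%, with a median of 0.27. Against the Y-linked-pattern libraries alone, 16 of the 30 were lower and 6 higher than in Trex1-/-, and 17 were lower and 7 higher than in Trex1D18N. The shares over all genes there were 22.3% and 23.9% lower, and 20.3% and 23.3% higher.

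Transporters of amino acids fell. Slc7a5, the transporter of large neutral amino acids, was 391, 368 and 374 CPM in WT and 55.2 and 47.5 CPM in Trex1p212fs (log2 fold change -2.94 ± 0.24, adjusted p = 0.000105). Slc3a2, its heavy-chain partner, was 430, 299 and 340 CPM in WT and 167 and 144 CPM in Trex1p212fs (log2 fold change -1.26 ± 0.20, adjusted p = 0.0027). Slc7a11, which imports cystine, was 22.5, 31.9 and 27.3 CPM in WT and 6.50 and 8.81 CPM in Trex1p212fs (log2 fold change -1.89 ± 0.24, adjusted p = 0.000873). Trex1p212fs values were under all WT values for these 3 genes.

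Enzymes that make amino acids fell as well. Asns, asparagine synthetase, was 342, 260 and 282 CPM in WT and 88.5 and 91.6 CPM in Trex1p212fs (log2 fold change -1.78 ± 0.23, adjusted p = 0.000948). The serine pathway genes Psat1, Psph and Phgdh had log2 fold changes of -1.61, -1.38 and -0.99, and the one-carbon genes Shmt2 and Mthfd2 of -1.40 and -1.22. Among regulators, Trib3, a pseudokinase, was 211, 156 and 175 CPM in WT and 32.4 and 29.0 CPM in Trex1p212fs (log2 fold change -2.62 ± 0.27, adjusted p = 0.000427). Atf4 itself was 611, 438 and 514 CPM in WT and 295 and 287 CPM in Trex1p212fs (log2 fold change -0.91 ± 0.19, adjusted p = 0.00945), and Atf5 had a log2 fold change of -1.59. Ddit3, Cebpb and Ppp1r15a, stress genes of the same branch, did not pass. Atf5, Trib3, Asns, Psat1, Slc7a11, Slc7a5 and Slc3a2 passed in all 20 alternatives, and they were the ones that did so without Trex1p212fs replicate 1.

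Of the 13 folding genes, 2 were lower, among them Herpud1. The 4 that rose were Pdia4 and Creld2, which act on disulfide bonds, and the chaperones Dnajb9 and Hsp90b1. Their log2 fold changes were 0.69, 0.71, 0.67 and 0.55. Their values in Trex1p212fs were above all WT values, but 0 of the 4 passed without either Trex1p212fs library or with the sex pattern as a term. Calr, the calcium-binding chaperone calreticulin, and Pdia3, its disulfide isomerase partner, which were listed with antigen presentation, were 1317, 1179 and 1362 CPM against 2416 and 2403 CPM, and 1114, 963 and 1065 CPM against 1978 and 2016 CPM. Their log2 fold changes were 0.84 ± 0.15 (adjusted p = 0.00529) and 0.87 ± 0.15 (adjusted p = 0.00372), and Calr was lost without either Trex1p212fs library.

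**Figure D4:**
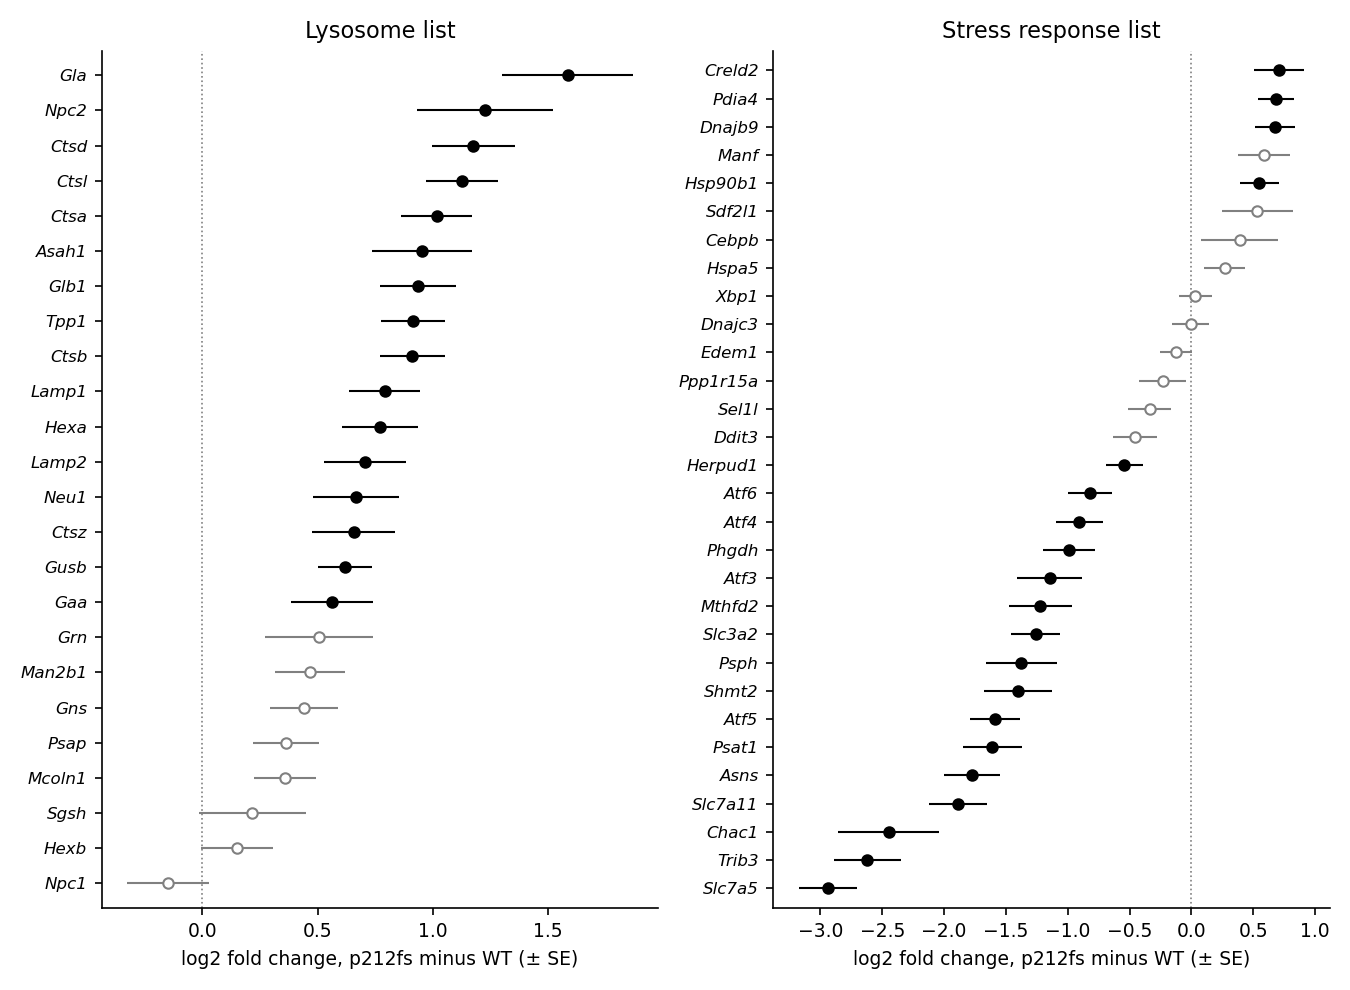
Log2 fold change of Trex1p212fs over WT with its SE for lysosomal genes (left, 1 of the 25 not shown) and the 30 stress response genes (right); filled points passed the threshold. All lysosomal genes shown but Npc1 lie right of 0, from Gla at 1.59 downward, and the amino-acid genes from Slc7a5 at -2.94 upward lie left of 0.

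Atf4-type factors bind composite sites of the form TGATGNAA. These letters were present on either strand in 3.97% of all promoter windows and in 6 of 29 windows of stress genes (20.7%). By gene, 6 of the 27 with a window had them: 6 of 14 that were lower, 0 of 4 that were higher and 0 of 9 that did not pass. Windows of 3 of the lower genes are shown, an enzyme, a glutathione-degrading gene and a transporter, with the site in capitals as it reads on the gene's strand. They lie at chr6:7693210-7693269 (minus strand, Asns), chr2:119351029-119351088 (plus strand, Chac1) and chr3:50443640-50443699 (minus strand, Slc7a11) of GRCm38.p6, from RefSeq. A match says only that the letters are there.
Asns: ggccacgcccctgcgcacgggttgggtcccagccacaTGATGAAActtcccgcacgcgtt
Chac1: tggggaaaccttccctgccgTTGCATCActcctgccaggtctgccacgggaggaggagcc
Slc7a11: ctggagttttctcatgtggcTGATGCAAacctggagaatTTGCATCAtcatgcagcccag

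Sncg encodes gamma-synuclein, a small protein best known from neurons. It was 1.77, 1.12 and 1.19 CPM in WT and 69.4 and 58.9 CPM in Trex1p212fs, a 44.8-fold difference with the smallest adjusted p of the genes named here (log2 fold change 5.48 ± 0.25, adjusted p = 1.55e-06). It passed in all alternatives, and against the Y-linked-pattern libraries its log2 fold change was 4.75 for Trex1-/- and 3.72 for Trex1D18N. Both Trex1p212fs values were far above all WT values.

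Interferon-stimulated genes, the usual readout of Trex1 loss, were mostly above WT but seldom past the threshold. Of 59 tested, Ifit1 and Ddx60 were higher and 0 were lower, against 8.13% and 8.95% of all genes. At an unadjusted p under 0.05, 15 were higher and 0 lower, where 33.2% of all genes were past it in either direction. In DESeq2 7 passed, where 3746 of 16990 genes did. The median log2 difference of the 59 was 0.73. Their summed level was 1884.6 to 3264.5 CPM in WT, 4554.7 and 4742.9 CPM in Trex1p212fs, 4069.7 to 16152.2 CPM in Trex1-/- and 4608.4 to 5852.0 CPM in Trex1D18N. Ifit1, which binds foreign RNA caps, was 79.4, 46.3 and 43.4 CPM in WT and 347 and 366 CPM in Trex1p212fs (log2 fold change 2.59 ± 0.62, adjusted p = 0.0214). Rsad2, encoding the antiviral enzyme viperin, was 6.92, 5.92 and 5.59 CPM in WT and 57.3 and 52.5 CPM in Trex1p212fs; the groups did not overlap, but the adjusted p was 0.0582. Trex1-/- replicate 2 stood apart at 406 CPM of Rsad2 against 22.8 and 52.1 CPM in its partners, and it entered the shared estimate of spread. The number past the threshold was 23 without that library, 13 without Trex1-/- replicate 1, 4 without Trex1-/- replicate 3, 19 with the 2 groups fitted alone, 21 with the sex pattern as a term, and 0 without WT replicate 2 or 3 or either Trex1p212fs library.

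Against all libraries of the other mutants, 0 of the 59 were higher than in Trex1-/- and 16 were lower, where 17.1% of all genes were lower; 0 were higher than in Trex1D18N and 6 were lower, where 20.1% of all genes were. Against the Y-linked-pattern libraries alone, which leave out Trex1-/- replicate 2, 4 were higher and 21 lower than in Trex1-/-, and 11 were higher and 20 lower than in Trex1D18N. The shares over all genes in these 2 contrasts were 20.3% and 23.3% higher, and 22.3% and 23.9% lower. Ifit1 was among the higher genes in both, with log2 fold changes of 1.11 and 1.30, and Ddx60 passed in neither. Of the chemokines and cytokines, Ccl5, which attracts T cells, was 3.93, 1.87 and 1.41 CPM in WT and 259 and 324 CPM in Trex1p212fs (log2 fold change 6.85 ± 1.60, adjusted p = 0.0212). Trex1-/- replicate 2 reached 379 CPM, above both Trex1p212fs libraries, and the call was lost without WT replicate 2 or 3 or either Trex1p212fs library and with DESeq2 and limma-voom. Il33, an alarmin, was 11.7, 25.5 and 20.1 CPM in WT and 5.83 and 5.52 CPM in Trex1p212fs (log2 fold change -1.80 ± 0.53, adjusted p = 0.0419). That call too was lost without WT replicate 2 or 3 or either Trex1p212fs library, and with the sex pattern as a term.

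Genes of proliferation gave few calls. Of 35 mitosis genes, 2 were lower and 0 higher, against 8.95% lower over all genes, with a median log2 difference of -0.69. None had a log2 fold change above 0, and 9 were lower and 0 higher at an unadjusted p under 0.05. Of 35 DNA replication genes 2 were lower and 0 higher, with a median of -0.35, and 5 were lower and 0 higher at an unadjusted p under 0.05. Over all genes, 33.2% had an unadjusted p under 0.05 in either direction. Mki67, the gene for the proliferation antigen Ki-67, was 337, 357 and 346 CPM in WT and 124 and 149 CPM in Trex1p212fs (log2 fold change -1.41 ± 0.35, adjusted p = 0.0229). It did not overlap between groups and did not pass without WT replicate 2 or 3 or either Trex1p212fs library. Among growth factor genes, 3 of 11 for IGFs and their binding proteins were lower and 0 higher, against 8.95% and 8.13% of all genes. The 3 were Igfbp2, Igfbp3 and Igfbp6, with log2 fold changes of -3.08, -1.58 and -1.25. With the sex pattern as a term 2 of the 3 passed. Against the Y-linked-pattern libraries alone, 3 of the 3 were lower than in Trex1-/- and 1 lower than in Trex1D18N, where 22.3% and 23.9% of all genes were. Igfbp6 passed in all alternatives.

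Hox genes, which mark the position of a cell along the body and limb axes, differed by paralogue group. In groups 1 to 8, 8 of 22 genes were higher and 2 lower. In groups 9 to 13, whose genes mark posterior trunk and distal limb, 0 of 15 were higher and 9 lower. Of all genes, 8.13% were higher and 8.95% lower, and 2 of 22 is near the latter. Hoxa5 was 11.4, 15.3 and 20 CPM in WT and 63.5 and 58.5 CPM in Trex1p212fs (log2 fold change 1.92 ± 0.26, adjusted p = 0.00141). Hoxc10 was 16.5, 15.2 and 20.3 CPM in WT and 1.79 and 4.65 CPM in Trex1p212fs (log2 fold change -2.49 ± 0.32, adjusted p = 0.000986). Hoxc11 was 3.60, 2.68 and 3.52 CPM in WT and 0.056 and 0.0541 CPM, a single count each, in Trex1p212fs (adjusted p = 0.000918). These 3 genes did not overlap between groups and passed in all alternatives. Hoxc12 had 0 counts in both Trex1p212fs libraries and no more than 0.747 CPM in WT, and it did not pass with the sex pattern as a term or without WT replicate 2 or 3. Of the 11 lower Hox genes, 3 passed without Trex1p212fs replicate 1 and 6 without replicate 2; of the 8 higher, 3 passed without either. Without WT replicate 2 or 3, 7 of the 11 lower genes passed, and with the sex pattern as a term 8 of the lower and 4 of the higher did.

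**Figure D5:**
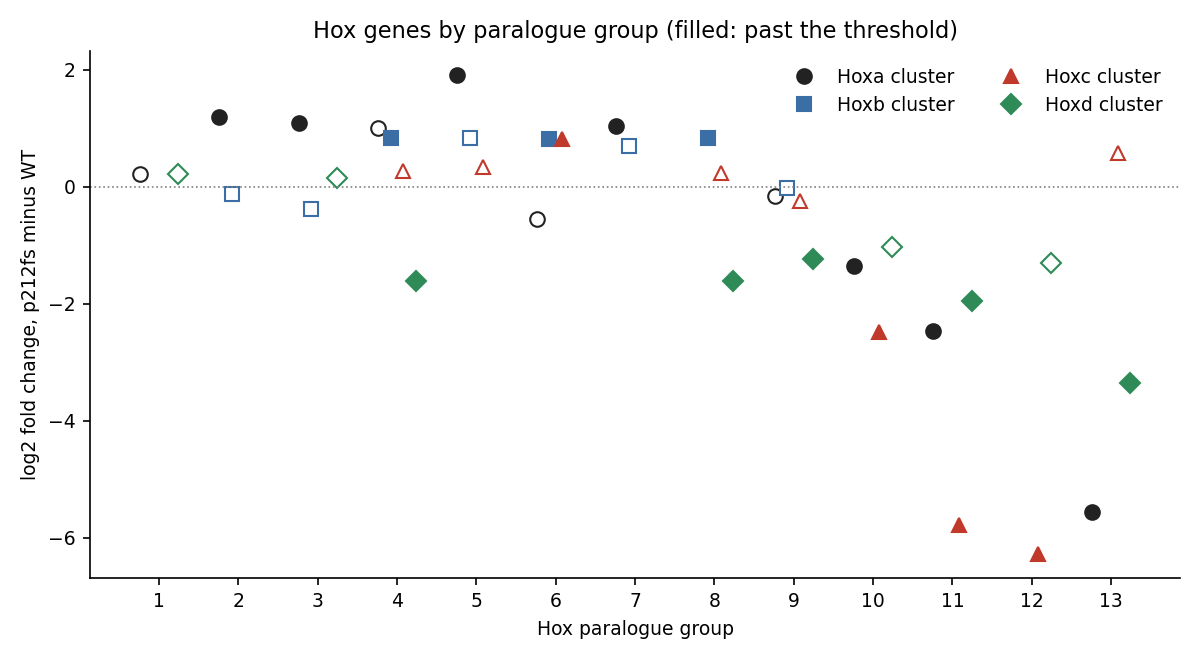
Log2 fold change of Trex1p212fs over WT for 37 tested Hox genes by paralogue group, with a symbol for each cluster and filled symbols past the threshold. Filled symbols lie above 0 for 8 genes of the lower-numbered groups, below 0 for Hoxd4 and Hoxd8, and below 0 in groups 9 to 13; Hoxc12, at 0 counts in Trex1p212fs, is placed by the fit and has no bounded value.

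Of 40 other positional transcription factors, 4 were higher and 5 lower, 10.0% and 12.5%, near the 8.13% and 8.95% of all genes, with a median log2 difference of 0.009. Tbx4, a hindlimb transcription factor, was 4.32, 9.96 and 7.70 CPM in WT and 0.560 and 2.00 CPM in Trex1p212fs (log2 fold change -2.56 ± 0.66, adjusted p = 0.025), and it was lost without WT replicate 2 or 3 or either Trex1p212fs library, and with the sex pattern as a term. Msx2, a homeobox gene of limb and skull mesenchyme, was 1.11, 1.81 and 3.20 CPM in WT and 10.5 and 9.52 CPM in Trex1p212fs (log2 fold change 2.24 ± 0.36, adjusted p = 0.00309) and passed in all alternatives. The labels do not give the part of the embryo that was cultured.

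The rule for the largest folds named further genes. Higher were Agt, the precursor of angiotensin, from 1.49, 0.560 and 0.813 CPM to 20.4 and 26.2 CPM (log2 fold change 4.52 ± 0.51, adjusted p = 0.000579), and Cox6b2, a testis isoform of a cytochrome c oxidase subunit, with a log2 fold change of 3.79 ± 0.42. Lower were P2rx3, an ATP-gated channel of sensory neurons, from 8.63, 8.16 and 5.69 CPM to 0.336 and 0.324 CPM (log2 fold change -4.54 ± 0.41, adjusted p = 0.000192), and Adgrd1, an adhesion G protein-coupled receptor, from 17.3, 11.4 and 8.89 CPM to 0.616 and 0.378 CPM (log2 fold change -4.71 ± 0.52, adjusted p = 0.000579). These 4 did not overlap between groups and passed in all alternatives. Gfap and Aqp4, an intermediate filament and a water channel of astrocytes, had log2 fold changes of -4.81 and -4.79 and were lost without either Trex1p212fs library. Marco, a scavenger receptor of macrophages, had a log2 fold change of -4.15 and was lost without either as well. Against Trex1D18N, Gfap and Marco did not pass, with log2 fold changes of -1.88 and 1.61, and Aqp4 was lower at -2.37.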

How the data were processed

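RNA was sequenced from 11 MEF libraries. The authors deposited raw read counts per gene; per the submitters' processing notes the tools were fastp, HISAT2 and featureCounts and the genome GRCm39, with no versions, and the strand setting of the counting is not given in the sources used here. Totals ran from 16073955 to 21765536 counts per library, and lines with no gene name, 0.0804 to 0.129% of counts, were left out. CPM are counts divided by the total of named genes and multiplied by 1000000.

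Genes with enough counts (edgeR's filter, minimum count of 10) were tested with edgeR 4.0.16 in R 4.3.3, with trimmed-mean (TMM) normalization, a robust quasi-likelihood fit of genotype to all 11 libraries, which share 1 estimate of spread, and Benjamini-Hochberg adjustment over 16990 genes at a threshold of 0.05. SE is a standard error worked back from the test: the log2 fold change without its sign, divided by the square root of its F statistic. Values passing in all alternatives passed in 20 further fits. These were DESeq2 1.42.0, its size factors, limma-voom (limma 3.58.1), no filter, a minimum count of 30, the 2 groups alone, a replicate block, the sex pattern as a term, a length and GC offset, and each of the 11 libraries left out. The sex term is estimated from Trex1-/- and Trex1D18N, which hold both patterns. The fit was tested on data simulated for 16558 genes, where 4.97% of 141 calls were false. Apart from the changed genes, all genotypes had the same mean there, with no sex pattern. The share of false calls in the real comparison is therefore not known from it.

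The members and gene lists were chosen with earlier results of these data known. Named were the 12 genes with the largest fold in each direction (at least 5 CPM in a group, no overlap), the 6 with the largest CPM difference, the 4 with the smallest p in each list, and p53 and matrix genes past the threshold. Copies that share reads, the predicted genes and some rule-named genes were left out, and the genes named as not passing, along with others outside the rule, were chosen after their values were seen. Promoter windows are RefSeq's for GRCm38.p6, another build than that of the counts, matched by gene symbol. Some genes of the lists are counted but not reported singly here.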

Additional observations from a re-analysis of the deposited data

How the results depend on the processing

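No result reversed direction. Leaving out 1 library each time gave 494 to 3947 genes past the threshold against WT, 1621 to 6253 against Trex1-/- and 2674 to 7187 against Trex1D18N. The lowest of these came without a Trex1p212fs library, which leaves a lone sample assumed to vary like the other groups. The same omissions gave 11 to 24 higher p53 targets, 14 to 49 lower matrix genes, 8 to 19 higher lysosomal genes, 7 to 17 lower stress genes and 2 to 11 lower glial markers. With the sex pattern as a term there were 1331 genes past the threshold against WT, 28 lower matrix genes and 5 lower glial markers, and the cause was not tested. DESeq2 gave 3746 genes against WT. A gene length and GC offset moved the median log2 difference of the matrix genes from -0.40 to -0.23. With Y-linked-pattern libraries alone, an alternative chosen after seeing the data, 6968 genes passed against Trex1-/- and 7722 against Trex1D18N.

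Replicate numbers do not pair the samples: deviations of same-numbered WT and Trex1p212fs libraries correlated at 0.035 and 0.0411. With a replicate block, 1966 genes passed against WT, 4701 against Trex1-/- and 5930 against Trex1D18N.

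Of 183 named genes past the threshold, 64 passed in every fit with a library left out, 118 in those keeping both Trex1p212fs libraries, and 114 with the sex pattern as a term.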

Other observations

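Mitochondrially encoded genes were lower or not past the threshold: of 26 tested, 10 were lower and 0 higher, against 8.95% and 8.13% of all genes. Of the 10, 6 were tRNA genes, from 12 tested, with WT means of 1.25 to 10.1 CPM. Of the 10, 4 passed without Trex1p212fs replicate 1, 3 without replicate 2 and 6 with the sex pattern as a term. Among the 12 that encode proteins, mt-Co1, mt-Cytb, mt-Nd1 and mt-Nd4 had log2 fold changes of 0.06, -0.01, -0.08 and 0.10 and did not pass. Of these 12, 4 were lower. The most abundant of these 4 was mt-Nd5, a subunit of respiratory complex I, at 1167, 1304 and 1228 CPM in WT and 429 and 425.1 CPM in Trex1p212fs (log2 fold change -1.59 ± 0.15, adjusted p = 0.000284 by edgeR), past the threshold in all 20 alternatives, as were mt-Nd3 and mt-Nd4l. Against Trex1-/- and Trex1D18N its log2 fold change was -1.56 and -1.34. The summed share of protein-coding mitochondrial counts overlapped between groups, at 1.06% and 1.17% in Trex1p212fs and 1.11 to 1.22% in WT.

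On the X chromosome, 13.7% of 571 tested genes were higher and 7.18% lower in Trex1p212fs than in WT, against 8.0% and 9.0% on autosomes; genotype and sex pattern cannot be told apart here.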
